A study of Mus musculus with 24 samples.

Results

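Excitatory projection neurons of the neocortex lie in layers, and each layer holds neurons that send their axons to different targets. Upper layer neurons mostly connect areas of cortex with each other, layer 4 receives input from the thalamus, layer 5 projects out of the cortex to brain stem and spinal cord, and layer 6 projects back to the thalamus. The identity of each class is set during development by transcription factors that repress one another, and many of these factors stay on in the adult, where they mark the layer. The 9 genes described here are layer markers, most but not all of them such factors, and are 9 of the 33000 genes in the deposited table. They were chosen by symbol as 4 markers of the upper layers (Cux1, Cux2, Rorb and Rasgrf2) and 5 of the deep layers (Fezf2, Bcl11b, Foxp2, Tbr1 and Tle4), and each symbol matched 1 row.

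RNA came from the frontal cortex of 6 C57BL/6 mice aged 3 months, of which 3 were wild-type (WT) and 3 were homozygous GFAP-IL6 mice. The GFAP-IL6 mouse carries an interleukin-6 transgene driven by the Gfap promoter, so astrocytes are the cells meant to make the cytokine and neurons meet it from outside. No other allele or treatment is named for either group. RNA of each mouse was profiled by 3'Pool-seq, a method that primes cDNA from the poly(A) tail, pools barcoded samples early and sequences the 3' ends of transcripts. Each mouse gave 4 libraries, made with 2 ng or 1 ng of cDNA in the tagmentation reaction (the step that cuts and tags the cDNA) and, at each amount, in a set A and a set B whose difference the labels do not state. The 4 libraries of a mouse share its RNA, so genotypes were compared on counts summed over them, with n = 3 mice per genotype.

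The 24 libraries held between 1524165 and 12256374 counts, and the mouse sums between 7852743 in WT mouse 3 and 37582644 in GFAP-IL6 mouse 3. Levels below are in CPM, read counts scaled to a common library size, after trimmed mean of M values (TMM) normalization. Gfap, the gene of the astrocyte filament protein and a check on the labels, was at 16.0 to 23.5 CPM in the WT mice and at 80.9 to 146.4 CPM in the GFAP-IL6 mice, and Il6 was at 0 to 0.260 CPM against 1.58 to 4.23 CPM. Both genes separated the genotypes in the direction of the labels. In WT mouse 3 the choroid plexus markers Ttr, Kl and Folr1 summed to 4059 CPM, against 76.9 to 748 CPM in the other 5 mice. In WT mouse 2 the markers of striatal projection neurons summed to 548 CPM, against 303 to 386 CPM in the other 5 mice, and 10 of the 11 striatal markers with any count were highest in this mouse. Drd2, a defining striatal receptor gene, was at 0 in all 6 mice and tells them apart in no way.

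The method reads transcript ends, so the annotated end of each gene is shown here, 30 bases each and 5' to 3' on the transcribed strand, with positions in the mouse build mm10 and GENCODE vM21 transcripts, and with the poly(A) signal hexamer in capitals where either searched form (AATAAA or ATTAAA, searched on the transcribed strand only) was present. The counting used an earlier GENCODE release that was not used here, so these bases need not be the counted ones. The end farthest downstream is given for each gene, with a further end for Cux1 and Rasgrf2.
Cux1, chr5:136248135-136248164, minus strand: cgcaagaAATAAAgaatcattgcagccaca
Cux1, other last exon, chr5:136266415-136266444, minus strand: gataattgaagtaaatatcttttatacaaa
Cux2, chr5:121856366-121856395, minus strand: caggtcctcattgggtcacctaggactttg
Rorb, chr19:18930605-18930634, minus strand: tgaacaaATTAAAagaagaaaaagaaaaaa
Rasgrf2, chr13:91880400-91880429, minus strand: ttaaacttcgcctttcttccgtactcaaaa
Rasgrf2, end of the transcript of the deposited length, chr13:91884432-91884461, minus strand: ctcaaaattgaacctcgactccctgcttga
Fezf2, chr14:12342094-12342123, minus strand: tattacatatatatgactcAATAAAtagaa
Bcl11b, chr12:107910403-107910432, minus strand: tatgaaAATAAAttgggacatttaacttga
Foxp2, chr6:15441948-15441977, plus strand: aaaaaagatctaagtctttttgacccattt
Tbr1, chr2:61814085-61814114, plus strand: caagtaaAATAAAtctggtaaaatgctaaa
Tle4, chr19:14448150-14448179, minus strand: acttttaagcATTAAAcataaataacttct

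Of the ends of 21797 protein-coding genes, 62.8% held either hexamer in this window and 51.2% held AATAAA. Cux1 has separate last exons, one at chr5:136248135-136248980 in 3 transcripts and one at chr5:136266415-136275466 in 5 transcripts. The gene also encodes CASP, a Golgi protein that lacks the homeodomain, and gene counts cannot tell these transcripts apart. Shorter transcripts of Foxp2, Rasgrf2 and Fezf2 end in other exons that are not shown, and 1 such end of Foxp2 and 1 of Rasgrf2 held AATAAA. For Rasgrf2 the gene length in the deposited table, 3567 bases, equals that of 1 transcript, whose 3' end lies 4032 bases short of the most distal annotated end at chr13:91880400. The rest of the longer last exon, with a 3' UTR of 4032 bases, lies outside the exons of that transcript. Rasgrf2 had 4 to 27 counts per mouse and 3 counts or fewer in 14 of 24 libraries, and the part that a short gene model plays in this was not tested. The other 8 genes had between 137 and 2909 counts in every mouse sum. Levels are not compared between genes, since 3' counts per gene were not divided by length.

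Among the upper layer markers, none was called as different between the genotypes. Cux1, a homeodomain transcription factor of upper layer neurons (chr5:136248135-136567490, minus strand), was at 48.8, 44.4 and 55.4 CPM in WT mice 1, 2 and 3 and at 57.6, 52.7 and 49.2 CPM in GFAP-IL6 mice 1, 2 and 3. The groups overlapped, with 49.5 ± 5.53 CPM in WT and 53.2 ± 4.20 CPM in GFAP-IL6 (SD, n = 3). Its log2 fold change, GFAP-IL6 minus WT, was 0.11 (SE 0.104, 95% interval -0.12 to 0.33, edgeR quasi-likelihood adjusted p = 0.867), and it ranged from 0.0286 without WT mouse 2 to 0.19 without WT mouse 3.

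Cux2, its paralog and a regulator of dendrites and synapses in the same layers (chr5:121856366-122050102, minus strand), was at 11.4, 9.92 and 18.0 CPM in the WT mice and at 17.6, 11.0 and 11.6 CPM in the GFAP-IL6 mice. One mouse of each genotype, WT mouse 3 and GFAP-IL6 mouse 1, was high and the other 4 lay close together. The same pair of mice was also highest for Cux1 and Rorb, and had the smallest count totals, 7852743 and 9534116. The part of depth in these levels was not tested. Its fitted log2 fold change was 0.05 (SE 0.214, interval -0.41 to 0.50, edgeR adjusted p = 0.981). Its sign turned with the mice included, from -0.16 without GFAP-IL6 mouse 1 to 0.29 without WT mouse 3.

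Rorb, a nuclear receptor of layer 4 neurons that takes part in the grouping of these neurons in sensory cortex (chr19:18930605-19111196, minus strand), was at 52.4, 47.0 and 84.5 CPM in the WT mice and at 57.6, 48.5 and 45.7 CPM in the GFAP-IL6 mice. WT mouse 3 stood apart from all other mice. The 4 libraries of this mouse lay between 78.8 and 98.7 CPM, all above the other 20 libraries, which lay between 36.3 and 66.0 CPM. Over all mice the log2 fold change was -0.26 (SE 0.169, interval -0.62 to 0.10, edgeR adjusted p = 0.741), and without WT mouse 3 it was 0.02. This is the mouse with the high choroid plexus markers, whose part in the Rorb level was not tested.

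Rasgrf2, an exchange factor that activates the small GTPase Ras (chr13:91880400-92131656, minus strand), was at 0.416, 0.720 and 0.919 CPM in the WT mice and at 0.422, 1.30 and 0.700 CPM in the GFAP-IL6 mice. The values overlapped and rest on a few counts each. Its log2 fold change was 0.38 (SE 0.515, interval -0.71 to 1.48, edgeR adjusted p = 0.914). The interval includes a rise by a log2 value of 1, so these data do not exclude a rise of that size.

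**Figure D1:**
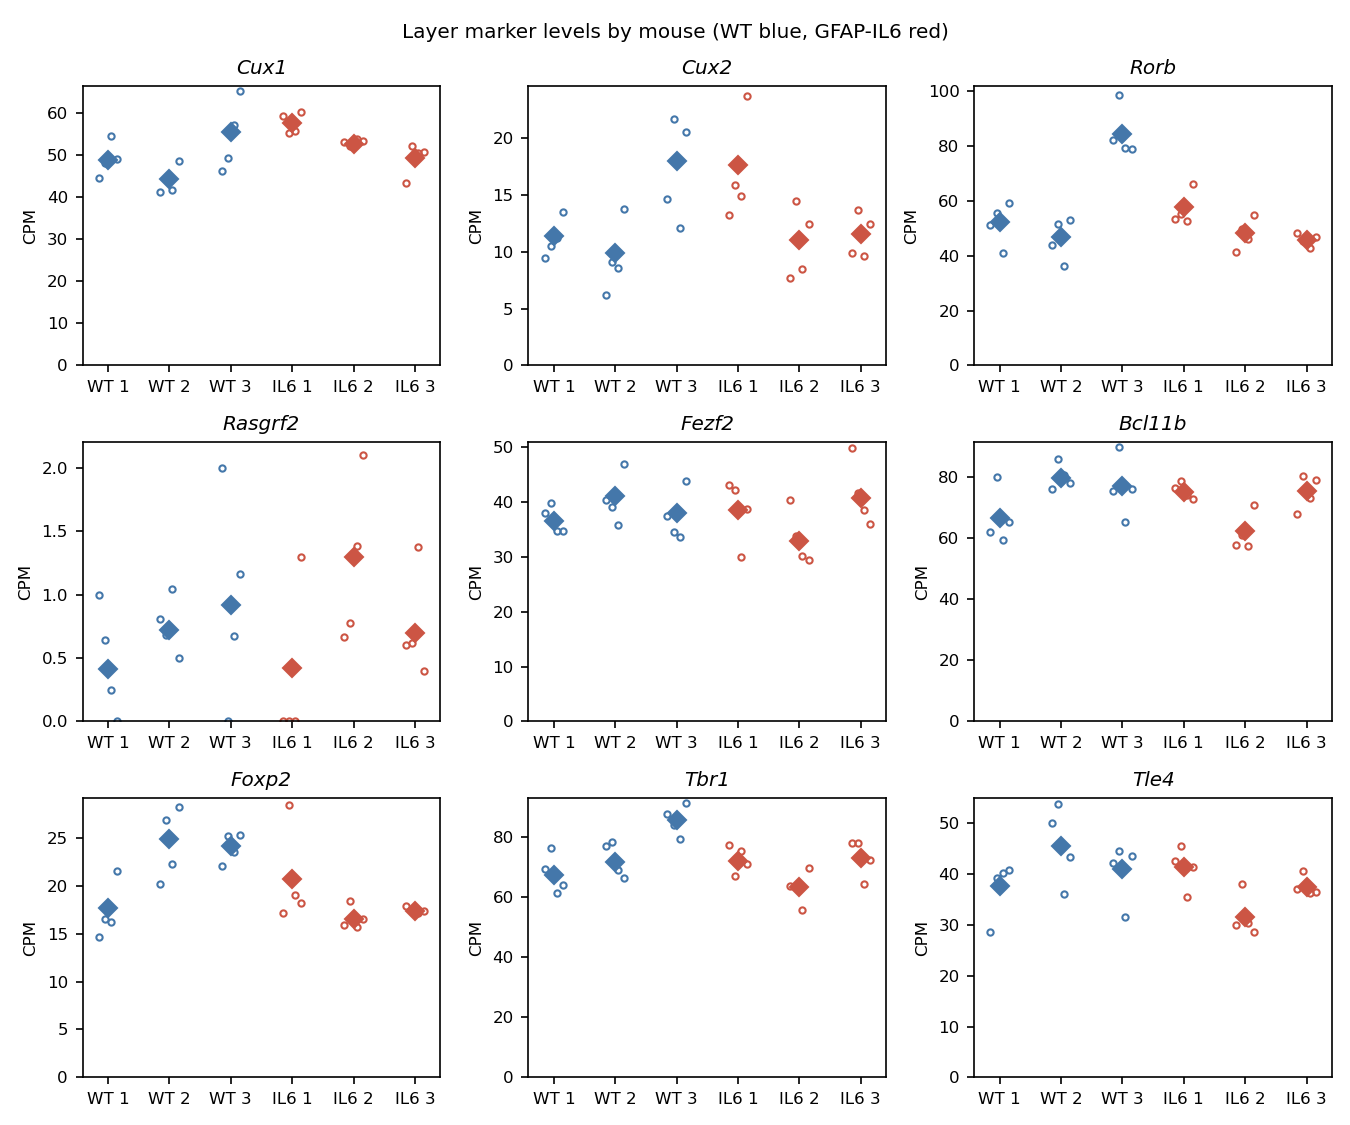
Level of each layer marker in CPM (y axis, from 0) in the 6 mice (x axis, IL6 standing for GFAP-IL6). Diamonds are the sums of a mouse and open circles its 4 libraries, with WT in blue and GFAP-IL6 in red. WT mouse 3 stands above the other mice for Rorb, at 84.5 CPM, and the genotypes overlap in every panel.

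The deep layer markers also overlapped between the genotypes. Fezf2, a zinc finger factor required for layer 5 neurons to take a subcerebral fate (chr14:12342094-12348189, minus strand), was at 36.5, 41.1 and 37.9 CPM in the WT mice and at 38.6, 32.9 and 40.7 CPM in the GFAP-IL6 mice. The means were 38.5 ± 2.35 and 37.4 ± 4.07 CPM (SD, n = 3). On the log2 scale the change was -0.04 (SE 0.107, interval -0.27 to 0.19, edgeR adjusted p = 0.961).

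Bcl11b, also called Ctip2, acts downstream of Fezf2 in corticospinal neurons and is also high in striatal projection neurons (chr12:107910403-108003602, minus strand). It was at 66.7, 79.8 and 77.2 CPM in the WT mice and at 75.1, 62.3 and 75.5 CPM in the GFAP-IL6 mice. Its change on the log2 scale was -0.07 (SE 0.103, interval -0.29 to 0.15, edgeR adjusted p = 0.920).

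Foxp2, a forkhead factor of layer 6 neurons and, like Bcl11b, of striatal neurons (chr6:14901349-15441977, plus strand), was at 17.6, 24.8 and 24.1 CPM in the WT mice and at 20.7, 16.5 and 17.4 CPM in the GFAP-IL6 mice. WT mouse 1 lay among the GFAP-IL6 mice, and WT mice 2 and 3 lay above all of them. The means were 22.2 ± 3.97 and 18.2 ± 2.18 CPM (SD, n = 3). Foxp2 had the most negative log2 fold change of the 9 genes and the smallest unadjusted p, with -0.29 (SE 0.145, interval -0.60 to 0.02) and, in edgeR's quasi-likelihood test, an unadjusted p of 0.0628 and an adjusted p of 0.600. Without WT mouse 1 the log2 fold change was -0.45 (adjusted p = 0.203), and without WT mouse 2, the one with the high striatal markers, it was -0.19. The part of striatal RNA in its level was not tested.

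Tbr1, a T-box factor that sets layer 6 corticothalamic identity and represses Fezf2 and Bcl11b (chr2:61802930-61814114, plus strand), was at 67.4, 71.7 and 85.8 CPM in the WT mice and at 71.9, 63.4 and 73.1 CPM in the GFAP-IL6 mice. As for Rorb, the 4 libraries of WT mouse 3, at 79.2 to 91.2 CPM, lay above the other 20, at 55.6 to 78.3 CPM, by a narrow margin. The log2 fold change was -0.10 (SE 0.103, interval -0.32 to 0.12, edgeR adjusted p = 0.872), and without WT mouse 3 it was 0.00 to the second decimal.

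Tle4, a corepressor of the Groucho family that is on in layer 6 neurons (chr19:14448150-14598051, minus strand), was at 37.6, 45.5 and 40.9 CPM in the WT mice and at 41.3, 31.5 and 37.4 CPM in the GFAP-IL6 mice. The groups overlapped through GFAP-IL6 mouse 1. This gave a log2 fold change of -0.18 (SE 0.116, interval -0.43 to 0.07, edgeR adjusted p = 0.746), and it was -0.0766 without GFAP-IL6 mouse 2 and -0.0991 without WT mouse 2.

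With edgeR's quasi-likelihood test and Benjamini-Hochberg adjustment over 14621 genes, 0 of the 9 markers passed an adjusted p of 0.05, and 263 genes, or 1.80% of those tested, did (1.74% higher and 0.0547% lower). At an unadjusted p under 0.05 the count was also 0 of 9, against 8.75% of all genes. For 0 of 9 did the 3 GFAP-IL6 mice lie entirely above or below the 3 WT mice, against 14.4% of all genes. DESeq2 also gave 0 of 9 by adjusted and by unadjusted p, and limma-voom on the 24 libraries, with 8 of the markers tested, gave 0 by adjusted p and 1, Foxp2, by unadjusted p. For 8 of the 9 markers no bound of the 95% interval lay farther from 0 than 0.62 on the log2 scale. The farthest was the lower bound of Rorb. The edgeR test draws the variance of each gene toward that of other genes, so an interval can be narrower than the gene's own spread implies. Rorb and Cux2 spread widely between mice, with pooled SDs of log2 CPM of 0.340 and 0.409, and their intervals may be too narrow. In frontal cortex tissue, fewer cells of a layer and less RNA per cell cannot be told apart.

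The fitted log2 fold changes of the 5 deep layer markers were all below 0, with a median of -0.10, and those of 3 of the 4 upper layer markers were above 0, with a median of 0.08. The median was -0.07 over the 9 markers and -0.01 over all genes tested, of which 7583 were below 0. The mean log2 CPM of the upper minus the deep markers was -1.87, -2.08 and -1.48 in the WT mice and -1.75, -1.38 and -1.83 in the GFAP-IL6 mice. Its difference between the group means was 0.15, smaller than the SD between mice of 0.305 in WT and 0.240 in GFAP-IL6 (n = 3 each), and it ranged from 0.01 to 0.32 as each mouse was left out, being 0.01 without WT mouse 2 or GFAP-IL6 mouse 2 and 0.32 without WT mouse 3. Without Rasgrf2 the difference was 0.11.

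**Figure D2:**
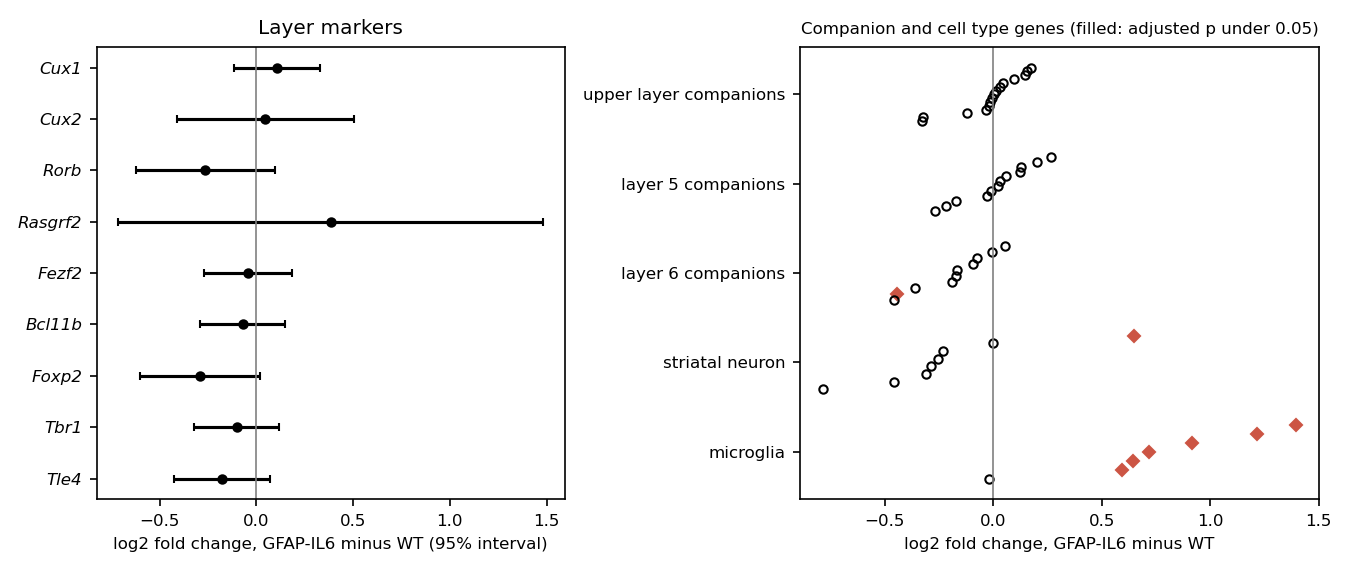
Log2 fold change, GFAP-IL6 minus WT, of the 9 layer markers with 95% intervals (left) and of companion layer genes, striatal neuron markers and microglia markers, 1 point per gene tested (right). Filled diamonds had an adjusted p under 0.05 in edgeR's quasi-likelihood test. The interval of every layer marker includes 0, 1 layer companion is filled, and 6 of 7 microglia markers are filled and above 0.

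Other genes known from the same layers were read from lists. Of 38 companion genes with a row, 37 were tested, 0 were higher and 1 was lower in GFAP-IL6 mice, and their median log2 fold change was -0.01. In the edgeR test the lower one was Cplx3, a complexin of subplate and layer 6b neurons that acts in transmitter release. It was at 49.0, 53.9 and 52.5 CPM in the WT mice and at 38.6, 38.1 and 37.4 CPM in the GFAP-IL6 mice. The groups did not overlap, and Cplx3 fell by 0.45 on the log2 scale (SE 0.091, edgeR adjusted p = 0.0161). The call was lost without WT mouse 2, GFAP-IL6 mouse 2 or GFAP-IL6 mouse 3 and in each of the 4 library sets alone, and as each of the 6 mice was left out in turn the log2 fold change stayed between -0.49 and -0.42. In the edgeR test only 8 genes, or 0.0547% of those tested, were lower.

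By layer, 8 of the 15 upper layer companions had a log2 fold change above 0 (median 0.01), as had 7 of the 12 layer 5 companions (median 0.03), and 9 of the 10 layer 6 companions tested were below 0 (median -0.17). The upper layer companions with the smallest unadjusted p were Plxnd1, a semaphorin receptor, at -0.33 and Pou3f3, a POU factor, at 0.17. In layer 5 they were Pcp4, a calmodulin regulator, at -0.27 (edgeR adjusted p = 0.269) and Deptor, an inhibitor of mTOR, at 0.27 (edgeR adjusted p = 0.392). In layer 6, after Cplx3, it was Ctgf, a secreted matrix protein of subplate neurons, at -0.46 (edgeR adjusted p = 0.442). The summed layer 6 companions were at 220, 238 and 259 CPM in WT mice 1, 2 and 3. In GFAP-IL6 mice 1, 2 and 3 they were at 211, 174 and 221 CPM, so the groups overlapped and GFAP-IL6 mouse 2 was lowest. Among 12 regulators of projection neuron identity 0 were called and 10 were below 0, with a median of -0.06. Of these Zbtb18, a repressor, was at -0.16.

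Lists of neuronal cell types were read in the same way. Of 9 excitatory neuron genes 0 were called (median -0.03), with Emx1, a homeobox gene of the dorsal telencephalon, at -0.30 (edgeR adjusted p = 0.207) and Neurod6 at 0.14. Of 10 genes shared by all neurons 0 were called (median -0.02), with Nefm at 0.17 and Syt1 at -0.16. Of 12 interneuron genes 0 were called (median -0.08), with Sst at -0.18 and Gad1 at -0.11. Of 8 striatal genes tested 1 rose, the phosphodiesterase gene Pde10a, at 22.6, 33.8 and 30.8 CPM in WT and 44.0, 42.5 and 49.2 CPM in GFAP-IL6 (log2 fold change 0.65, edgeR adjusted p = 0.0169), and the other 7 were below 0. The Pde10a call was lost without WT mouse 1 (0.48) or GFAP-IL6 mouse 3 (0.58), after thinning to equal totals (0.53) and in the 2 ng set A alone (0.63).

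Among non-neuronal lists, most microglia genes moved. Of 7 microglia genes 6 rose (among them C1qa by 1.39, Aif1 by 1.22, Cx3cr1 by 0.72, Csf1r by 0.64 and Tmem119 by 0.59 on the log2 scale in the edgeR fit), and summed microglia markers were at 369 to 417 CPM in WT and 602 to 775 CPM in GFAP-IL6. Aif1 and C1qa were called in 18 of 18 alternatives, Cx3cr1 in 16, Csf1r in 14 and Tmem119 in 12. Without GFAP-IL6 mouse 3 the calls of the last 3 were lost, with log2 fold changes of 0.52 for Cx3cr1, 0.42 for Csf1r and 0.47 for Tmem119. Calls were also lost without WT mouse 1 for Cx3cr1 and Csf1r, without WT mouse 2 for Csf1r and Tmem119, and without WT mouse 3 or GFAP-IL6 mouse 2 for Tmem119. Of 5 endothelial genes Flt1 and Ly6c1 rose, by 0.70 and 0.82, and of 7 astrocyte genes Gfap rose, by 2.44. Flt1 and Ly6c1 were both no longer called without WT mouse 2 (0.60 and 0.83) or GFAP-IL6 mouse 2 (0.62 and 0.67). The Flt1 call was also lost in the 1 ng set A alone, and that of Ly6c1 in DESeq2 (adjusted p = 0.183) and without WT mouse 1 (0.75) or GFAP-IL6 mouse 3 (0.72). Among oligodendrocyte genes 0 of 7 were called, with Mog at -0.15 and Mbp at -0.14, and among precursor genes 0 of 2, with Pdgfra at 0.07 and Cspg4 at 0.04. The summed oligodendrocyte markers ranged from 5589 to 8721 CPM over the mice. Of the 3 choroid plexus genes 0 were called, with Kl at -1.22, Folr1 at -1.41 and Ttr at -1.79.

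**Figure D3:**
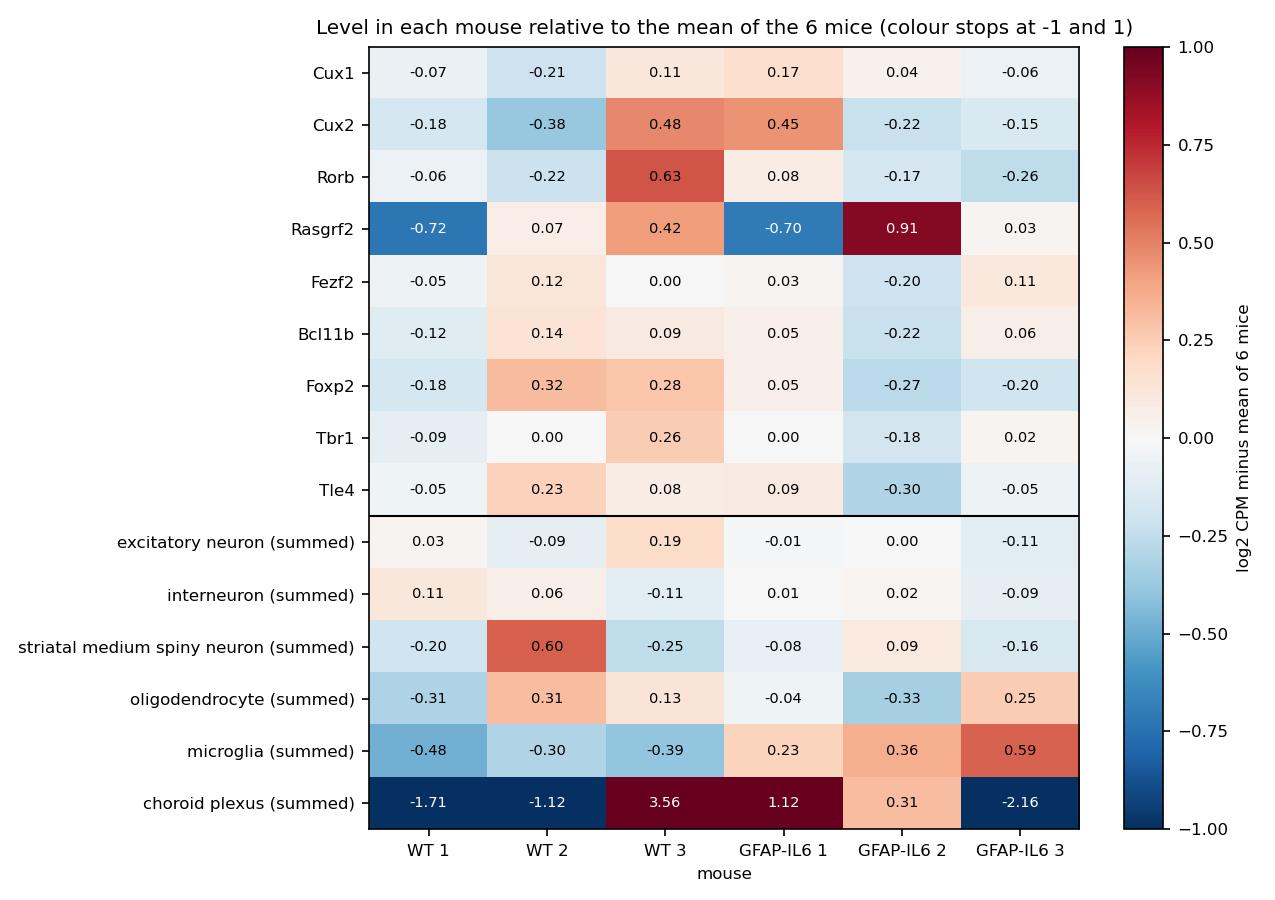
Log2 CPM in each mouse (columns) minus the mean of the 6 mice, for the 9 layer markers (above the line) and for the summed CPM of 6 cell type lists (below it), with the value in each cell and colours that stop at -1 and 1. The largest marker deviation other than that of Rasgrf2 is Rorb in WT mouse 3, at 0.63, and the choroid plexus sum in the same mouse is at 3.56. No prior count was added here.

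Single mice differed across several markers together. GFAP-IL6 mouse 2 had the lowest level of all 5 deep layer markers, and WT mouse 2 the highest level of 4 of them, Fezf2, Bcl11b, Foxp2 and Tle4. WT mouse 3 was highest for Cux2, Rorb and Tbr1. WT mouse 2 was lowest for Cux1 and Cux2. The ratio of the highest to the lowest mouse was 1.25 for Fezf2, 1.28 for Bcl11b, 1.30 for Cux1, 1.35 for Tbr1, 1.45 for Tle4, 1.50 for Foxp2, 1.81 for Cux2, 1.85 for Rorb and 3.11 for Rasgrf2. The summed striatal and oligodendrocyte markers were also highest in WT mouse 2, at 548 and 8721 CPM. In GFAP-IL6 mouse 2 the oligodendrocyte sum was the lowest, at 5589 CPM, and the striatal sum, at 386 CPM, was the highest after that of WT mouse 2. The part of these markers in the deep layer levels was not tested.

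The SD of log2 CPM between mice, pooled within genotypes, was lowest for Fezf2, at 0.129, and then 0.138 for Cux1, 0.148 for Bcl11b, 0.151 for Tbr1, 0.171 for Tle4, 0.226 for Foxp2, 0.340 for Rorb, 0.409 for Cux2 and 0.611 for Rasgrf2. The median over the 9 markers, 0.171, was close to that over all genes tested, 0.172. For Rorb the spread lay among the WT mice, with an SD of 0.449 against 0.173 among the GFAP-IL6 mice, while for Cux2 both groups were wide, at 0.445 and 0.368. The 4 libraries of a mouse span both cDNA amounts, so the SD between them also holds any difference between the amounts. This SD was 0.118 for Tbr1, 0.181 for Rorb and 0.356 for Cux2, with a median of 0.185 over the markers and 0.295 over all genes. The medians expected from counting alone in 1 library also differed, at 0.126 and 0.193. Counting error alone would give about 0.103 for Rorb and 0.221 for Cux2 in 1 library, and about 0.0497 and 0.102 in a mouse sum. For Rasgrf2 the expected counting SD of a mouse sum was 0.482.

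**Figure D4:**
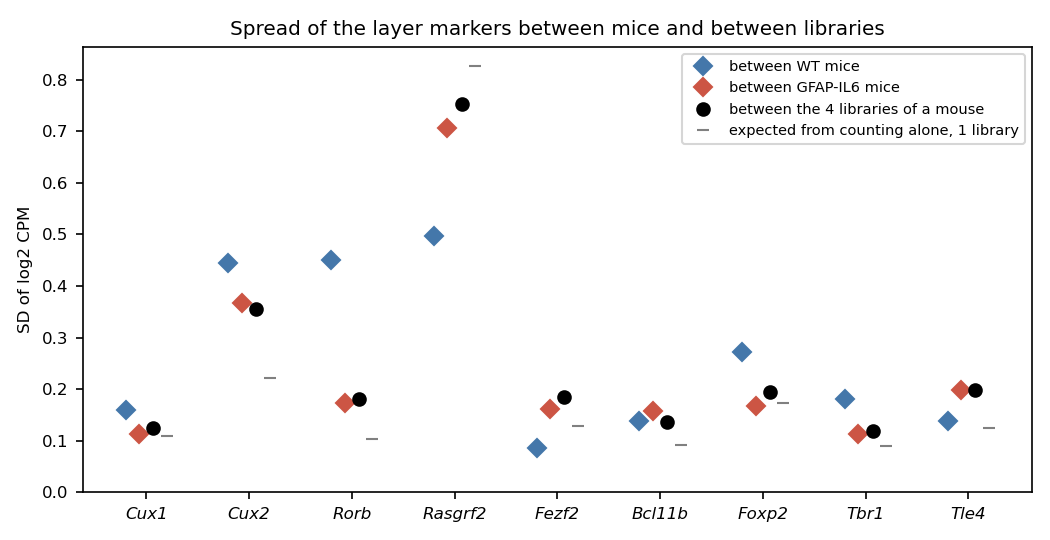
SD of log2 CPM (y axis) of each layer marker (x axis) between the 3 WT mice (blue diamonds), between the 3 GFAP-IL6 mice (red diamonds) and between the 4 libraries of a mouse (black circles), with the SD expected from counting alone in 1 library (grey dashes). Rorb has 0.449 between WT mice and 0.173 between GFAP-IL6 mice. The 4 libraries of a mouse include both cDNA amounts.

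When each library set was tested alone, with 8 markers passing the filter and Rasgrf2 left out, 0 of 8 differed between the genotypes in any of the 4 sets, where 1.03% (2 ng A), 1.08% (2 ng B), 1.10% (1 ng A) and 1.08% (1 ng B) of all genes were called. At an unadjusted p under 0.05 the edgeR test gave 0 markers in both 2 ng sets, Rorb in the 1 ng set A and Foxp2 in the 1 ng set B. Foxp2, Rorb, Tbr1 and Tle4 were below 0 in 4 of 4 sets, with log2 fold changes from -0.53 to -0.11 for Foxp2, and Cux1 was above 0 in 4 of 4, from 0.03 to 0.22. Fezf2 went both ways, from -0.27 to 0.22. The sets hold the same mice, so they repeat the measurement and not the comparison.

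Next, the amounts of cDNA were compared, which answers whether these genes were counted alike in both kinds of library. Cux2 was at 7.34 to 13.9 CPM with 2 ng (median 9.97) and at 11.9 to 21.2 CPM with 1 ng (median 13.2), and it was lower with 2 ng in 6 of 6 mice. Its means were 10.4 ± 2.70 and 15.4 ± 4.27 CPM (SD, n = 6), and Cux2 fell by 0.57 on the log2 scale (SE 0.174, edgeR quasi-likelihood adjusted p = 0.0343). It was the only one of 8 tested markers that passed, where 12.3% of all genes were called and 6.76% were lower. Without WT mouse 2, GFAP-IL6 mouse 2 or GFAP-IL6 mouse 3 the call was lost (edgeR adjusted p from 0.0757 to 0.102), although the log2 fold change stayed between -0.63 and -0.53.

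Since both amounts came from the same mice, the fit with the mouse as a block compares them within mice, and there 5 of 9 markers fell with 2 ng, against 31.2% of all genes called and 16.4% lower. In this edgeR fit Cux2 fell by 0.53 (adjusted p = 1.402e-06), Rorb by 0.23 (adjusted p = 3.05e-05), Bcl11b by 0.18 (adjusted p = 0.000203), Foxp2 by 0.22 (adjusted p = 0.0234) and Tle4 by 0.16 (adjusted p = 0.0175). Each of these 5 was lower with 2 ng in 6 of 6 mice. Cux1 was lower in 5 of 6 mice, and Fezf2 and Tbr1 in 4 of 6, and in the edgeR fit with the block their log2 differences, 2 ng minus 1 ng, were -0.09, 0.00 and -0.07. The median difference of the 8 markers tested without the block was -0.17, and that of all genes was 0.00. In 6 of 6 mice the 1 ng libraries also held more counts, 1.35 to 1.57 times those of the 2 ng libraries, and the part of depth in the differences was not tested.

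**Figure D5:**
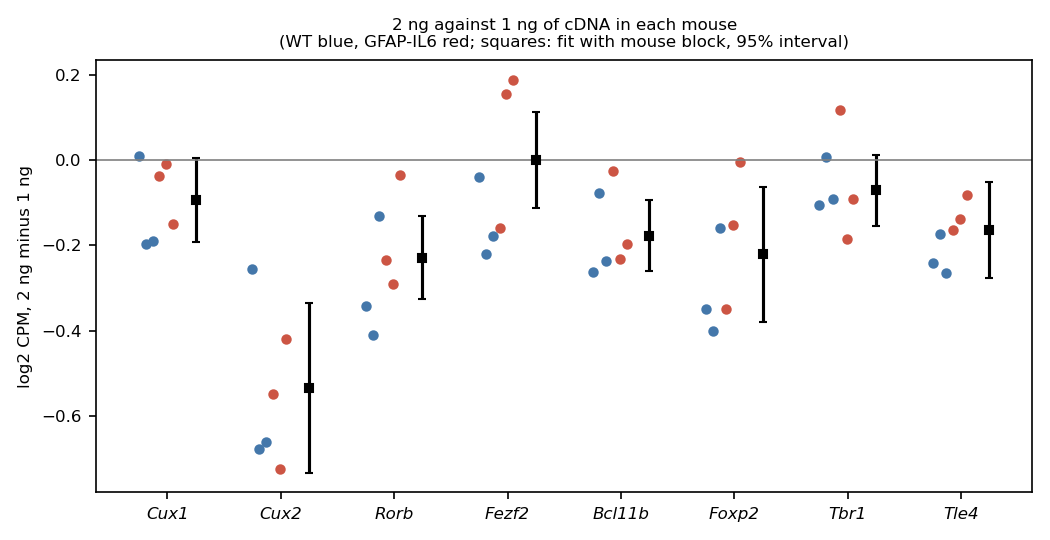
Log2 CPM with 2 ng minus that with 1 ng of cDNA (y axis) for 8 layer markers (x axis), with 1 circle per mouse (WT blue, GFAP-IL6 red). Black squares give the edgeR estimate with the mouse as a block and its 95% interval. All 6 circles lie below 0 for Cux2, Rorb, Bcl11b, Foxp2 and Tle4.

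Set A and set B were compared in the same way. In edgeR's test 0 of 8 markers were called without the mouse block, where 6.98% of all genes were, and 0 of 8 with it, where 21.7% were. At an unadjusted p under 0.05 the count was 0 without the block and 2, Fezf2 and Tbr1, with it, and DESeq2 gave 0 by both. Cux1 was lower in set A in 6 of 6 mice, with means of 48.8 ± 4.91 and 53.6 ± 5.89 CPM (SD, n = 6) and a log2 difference of -0.13 (SE 0.0813, edgeR adjusted p = 0.386).

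The genotype effect was also compared between amounts and between sets through interaction terms. In edgeR's test 0 of 8 markers differed for the amounts and 0 of 8 for the sets, 0.00% of all genes did in either, and at an unadjusted p under 0.05 the count of markers was 0 in both (93 of 13961 and 239 of 14167 genes). With the mouse as a block it was 1 in each, Fezf2, at an unadjusted p of 0.0312 for the amounts and 0.0265 for the sets, where 551 and 606 genes had one under 0.05 and 0 passed after adjustment.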

How the data were processed

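The authors trimmed poly(A) from single-end 3'Pool-seq reads, aligned them with STAR 2.4 to mm10 and deposited raw counts per gene from featureCounts with GENCODE annotation (the submitters' notes name hg19, but the rows carry mouse identifiers). Each of the 24 columns was matched to its sample by title, and libraries were summed per mouse (genotype) or per mouse and amount or set. Genes were filtered with filterByExpr, scaled by TMM and tested with edgeR 4.0.16 (glmQLFit, glmQLFTest, R 4.3.3), Benjamini-Hochberg adjusted at 0.05, and alternatives used DESeq2 1.42.0 and limma 3.58.1. Log2 CPM used a prior count of 2. Scripts were tested on simulated data. The amounts and sets are paired by mouse. Deviations of the same mouse correlated at 0.294 to 0.427 for the amounts and at 0.115 to 0.284 for the sets. The labels do not say that libraries are separate preparations. In the genotype comparison on mouse sums, p-values rest on the spread between mice, with the variance of each gene drawn toward that of other genes. For the amounts, sets and interactions, fits without the mouse block treat sums of the same mouse as independent. Fits with the block measure the scatter left within mice. The members and gene lists were chosen with earlier results of these data known. Named were the 9 markers, Gfap, Il6, from each list the called genes or otherwise the 2 with the smallest p, and the 3 genes most like the marker with the smallest p, of which a few are not reported here. Ttr was named, and the balance without Rasgrf2 was computed, after values were seen. Depth limits precision through counting error. The intervals of the genotype comparison use the same variances as the p-values, so they can be narrower than a gene's own spread between mice implies.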

Additional observations from a re-analysis of the deposited data

Results flagged for a closer look

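Foxp2 went opposite ways in the genotypes when set A was compared with set B. Set A minus set B was -0.31, -0.13 and -0.06 on the log2 scale in WT mice 1, 2 and 3 and 0.31, 0.08 and 0.02 in GFAP-IL6 mice 1, 2 and 3, so every WT mouse was lower and every GFAP-IL6 mouse higher in set A, and the group means differed by 0.3013. The interaction term of edgeR's quasi-likelihood test put this difference at 0.29 (SE 0.245, 95% interval -0.22 to 0.80, unadjusted p = 0.247, adjusted p = 0.9999), and with the mouse as a block the unadjusted p was 0.131, so the difference did not pass the test in either fit. For Fezf2 the same term was larger, at 0.32 (edgeR unadjusted p = 0.0816, and 0.0265 with the block). The share of all genes that split by genotype in this way is not given, so the split is a description only.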

How the results depend on the processing

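Of 155 values of the 9 markers under 18 alternatives of the genotype comparison, 0 had an adjusted p under 0.05 (smallest 0.203, Foxp2 without WT mouse 1). The number of all genes called, 263, was 462 with no filter on low counts, 125 and 136 in set A and 132 and 140 in set B at 2 ng and 1 ng, fewer libraries in each case, and 146 to 321 as each mouse was left out, lowest without GFAP-IL6 mouse 3. Same-numbered mice share only a number (their deviations correlated at -0.05, -0.04 and -0.06, and none was most alike to its own number), and with the number as a replicate block 220 genes and 0 markers were called. The markers passing for 2 ng against 1 ng, 1 in the report, were 5 with the mouse as a replicate block, 2 without the filter and 0 to 2 as each mouse was left out, and the replicate block changed no other call of a marker, with 0 called between the sets under it. Signs turned as follows, with log2 differences, and the cause was not tested. Between genotypes, Cux2 was -0.00401 and -0.00654 in set B at 2 ng and 1 ng, Fezf2 was 0.22 and 0.0397 in set A, Bcl11b 0.0354 in the 1 ng set B, Cspg4 -0.27 and -0.42 and Pdgfra -0.0700 (1 ng) in set A and Pdgfra -0.00884 after thinning to equal totals, and Deptor -0.0127 and Neurod6 -0.00271 in the 2 ng set A. As each mouse was left out, Cux2 ranged from -0.16 to 0.29, Rorb from -0.43 to 0.0165, Rasgrf2 from -0.10 to 0.58, Fezf2 from -0.12 to 0.0445, Bcl11b from -0.15 to 0.0160, Tbr1 from -0.17 to 0.00132, Cspg4 from -0.0292 to 0.0962, Folr1 from -1.91 to 0.16, Mog from -0.33 to 0.00728 and Pdgfra from -0.12 to 0.21. For 2 ng minus 1 ng, Fezf2 was 0.00112 with the replicate block and ranged from -0.0831 to 0.0201. For set A minus set B, Rorb was 0.00326 with the replicate block, 0.00801 without the filter and 0.00133 in DESeq2 and ranged from -0.0463 to 0.0410, and Foxp2 ranged from -0.0736 to 0.0492. Depth limits Rasgrf2 most.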

Other observations

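Over the 6 mice, the log2 CPM of Mttp, the lipid transfer protein gene, followed that of Foxp2 with a Pearson r of 0.991, and that of Hmgcll1 with an r of 0.985. With 6 points that share their libraries and depth, 125 of 14620 genes had an r over 0.9, so these values are a description only.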
